A study of Mus musculus with 20 samples.

Results

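The carnitine shuttle is represented here by 6 genes, chosen by name from the 25052 genes in the tables: Cpt1a, Cpt1b, Cpt2, Slc25a20, Crat and Slc22a5. All 6 were listed once, lay far above the filter on low values, and were tested in each comparison with 12775 genes in all. The values come from poly(A) RNA of left ventricle of 20 male mice, 5 in each of 4 groups, and are FPKM (fragments mapped to a gene, scaled to its transcript length and to the size of the library). Acacb, the gene of acetyl-CoA carboxylase ACC2, was floxed in the iKO mice, which also carried the tamoxifen-inducible Cre recombinase MerCreMer. The controls, called WT in the labels, were littermates with the same floxed alleles and no Cre, so that no group was free of floxed Acacb. Every mouse was given tamoxifen at 20 mg/kg for 5 days from 8 weeks of age, and 4 weeks later began 16 weeks on chow or on the high-fat diet (HFD) D12492. The labels do not name the promoter of MerCreMer, and there is no group with the Cre and unfloxed Acacb, so that loss of ACC2 and effects of the transgene cannot be told apart.

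Long-chain fatty acids cannot cross the inner mitochondrial membrane as CoA esters, and the shuttle carries them across as acylcarnitines. At the outer membrane a carnitine palmitoyltransferase 1, CPT1B in muscle and CPT1A in liver and many other tissues, moves the acyl group from CoA to carnitine. The carrier encoded by Slc25a20 exchanges the acylcarnitine for free carnitine across the inner membrane, and CPT2 restores the acyl-CoA in the matrix for beta-oxidation. CRAT, carnitine acetyltransferase, handles acetyl and other short-chain groups, and the plasma membrane transporter OCTN2, encoded by Slc22a5, brings carnitine into the cell. Malonyl-CoA, the product of ACC2, inhibits both CPT1 isoforms and is held to restrain fatty acid entry in the heart.

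The genes lie on 6 chromosomes, given here on GRCm38 by Ensembl ID from GENCODE M21. Cpt1b (ENSMUSG00000078937.8) spans chromosome 15, 89416405 to 89425863, on the minus strand, and Cpt1a (ENSMUSG00000024900.4) spans chromosome 19, 3322334 to 3385733, on the plus strand, in a later version of its model. Slc25a20 (ENSMUSG00000032602.6) spans chromosome 9, 108662088 to 108684641, on the plus strand, and Cpt2 (ENSMUSG00000028607.16) chromosome 4, 107903981 to 107923610, on the minus strand. Crat (ENSMUSG00000026853.15) spans chromosome 2, 30400471 to 30415813, and Slc22a5 (ENSMUSG00000018900.7) chromosome 11, 53864542 to 53891660, both on the minus strand. Of the exonic bases of Cpt1b, 2744 of 3372 are also annotated to Gm44502, a transcript model on the same strand that was not analysed here, and how the counting divided reads between them is not given in the sources used here. Crat shares 59 exonic bases with Dolpp1 and 411 with Gm16323 on the opposite strand, of which Dolpp1 stood at most at 2.73 FPKM and Gm16323 at most at 0.21 FPKM, far below Crat.

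Slc25a20 and Cpt2 are the pair that passed the test in 3 of the 4 pairwise comparisons, and their promoters are printed for that reason. They come from RefSeq on GRCm38.p6, 250 bases before to 50 bases after the transcription start, 5′ to 3′ on the gene's strand. Capitals mark GC boxes, GGGCGG on either strand, and, in Slc25a20, a match, with at most 2 mismatches, to 2 copies of AGGTCA in tandem spaced by 1 base. This is the DR1 element that PPAR and RXR, nuclear receptors of fatty acid metabolism, bind.
Slc25a20, chr9:108661886-108662185, plus strand: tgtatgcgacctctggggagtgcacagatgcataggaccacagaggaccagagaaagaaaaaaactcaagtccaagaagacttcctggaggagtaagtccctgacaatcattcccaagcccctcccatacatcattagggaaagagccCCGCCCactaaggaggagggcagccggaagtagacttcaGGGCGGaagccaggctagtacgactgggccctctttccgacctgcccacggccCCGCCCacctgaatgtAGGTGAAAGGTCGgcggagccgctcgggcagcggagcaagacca
Cpt2, chr4:107923540-107923839, minus strand: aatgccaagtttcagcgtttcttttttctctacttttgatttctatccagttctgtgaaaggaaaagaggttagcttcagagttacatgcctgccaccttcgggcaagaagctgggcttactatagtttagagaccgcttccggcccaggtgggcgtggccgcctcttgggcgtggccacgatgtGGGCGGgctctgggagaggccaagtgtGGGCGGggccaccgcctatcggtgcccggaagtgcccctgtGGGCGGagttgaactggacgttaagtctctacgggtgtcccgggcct

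Each of these 300-base windows held 3 GC boxes, a motif that 35.7% of all 32851 promoter windows held at least once. The DR1 match of Slc25a20 stood 2 mismatches from the full letters, just after the transcription start, and 3.86% of all windows held a match of this quality on either strand. Cpt2, Cpt1a and Slc22a5, the other members among the 4 whose windows were matched, had no such match in their 300 bases. The window of Cpt1a, 3323051 to 3323350, lies inside the gene span given above, which begins at 3322334. Its transcription start is thus not the first base of that gene model. The same half-site preceded by TCA, the element of ERR receptors, was found in none of the 4 windows and in 0.423% of all. Cpt1a had 1 half-site AGGTCA on the opposite strand, as did 16.3% of windows on either strand. GC content was 58% in the window of Slc25a20, 57.3% in that of Cpt2, 62.3% in that of Cpt1a and 72.7% in that of Slc22a5. The windows of Cpt1b and Crat were not analysed here.

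Facts of the whole series that touch these genes are few. Acacb stood between 34.9 and 41.92 FPKM in the 10 WT libraries and between 8.37 and 11.92 FPKM in the 10 iKO libraries. Esr1, whose ligand-binding part is in MerCreMer, stood at most at 2 FPKM in WT and at least at 421.3 FPKM in iKO. Assigned reads, estimated from the steps of 1 read between low values, lay between 12.6 M in iKO chow library RT7 and 32.05 M in WT HFD library RT18. Libraries RT1 to RT10 were chow and RT11 to RT20 HFD, and the labels name no batch, so that the diet and the order of the numbers cannot be told apart. Myl7, a marker of atrial muscle, reached 145.2 FPKM in RT1 and 30.81 FPKM in RT4, a WT and an iKO mouse on chow, against at most 2.88 FPKM in the HFD groups, and the fits were repeated without this pair. The 10 cardiomyocyte markers were all present, with summed levels on chow of 34170 to 35350 FPKM (WT) and 33950 to 38330 FPKM (iKO), and on HFD of 26490 to 32960 FPKM (WT) and 28120 to 29890 FPKM (iKO).

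In ventricle of WT mice on chow the shuttle was led by Cpt1b, with a mean of 167.7 FPKM ± 6.25 (SD, n = 5). Crat followed at 143 FPKM ± 5.66, Slc25a20 at 101.4 ± 5.11 and Cpt2 at 91.9 ± 5.47. Cpt1a stood at 12.2 FPKM ± 1.2 and Slc22a5 at 8.8 ± 0.51. FPKM are per length and can be set side by side between genes, within the limits of the gene models. Over all 20 libraries Cpt1b ranked 347th of the 25052 listed genes by mean FPKM, Crat 385th, Slc25a20 489th and Cpt2 557th, while Cpt1a ranked 3600th and Slc22a5 4507th. The order of the 6 genes was the same in 19 of 20 libraries, the exception being WT HFD library RT19, where Slc25a20 (138.9 FPKM) was above Crat (135.2 FPKM). Not all neighbours were separated by more than their spread. The ranges of Cpt1b and Crat overlapped in both HFD groups, those of Crat and Slc25a20 in WT on HFD, and those of Slc25a20 and Cpt2 in both chow groups.

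**Figure D1:**
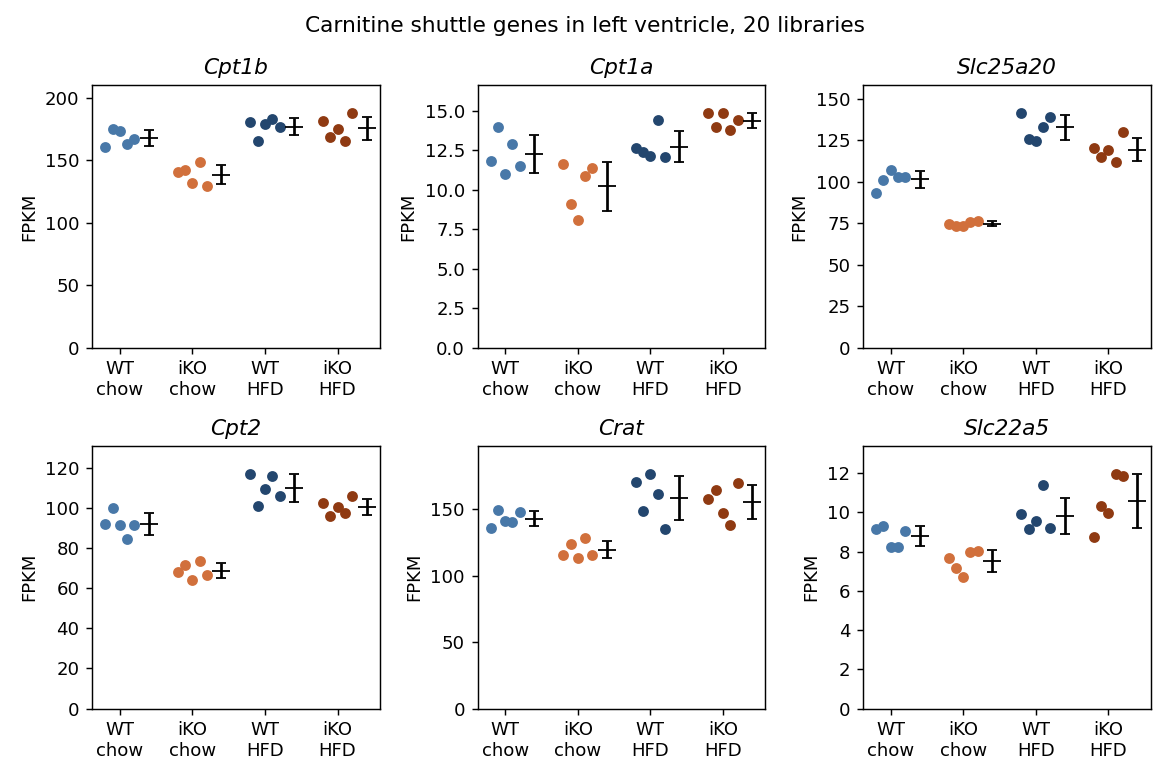
FPKM (vertical axis, from 0) of the 6 carnitine shuttle genes in each library of the 4 groups; dots are libraries, in order of library number from left to right, and bars are the mean ± SD of 5 mice. For every gene except Cpt1a the iKO chow libraries sit below all others, in Slc25a20 at 73.49 to 76.54 and in Cpt2 at 63.98 to 73.49 FPKM.

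On chow, iKO and WT ventricles were compared to ask how the shuttle genes stood after ACC2 deletion. Slc25a20, Cpt2 and Cpt1b fell in iKO, to 0.74, 0.75 and 0.826 of WT on the FPKM + 1 scale, and Crat, Cpt1a and Slc22a5 had lower means that did not pass the test. The called members were 3 of 6, where 0.72% of all genes tested were called lower and 0.344% higher. In 5 of 6 members, all except Cpt1a, every iKO library lay below every WT library, which held for 1.11% of all genes, while 2.07% were apart with iKO higher. The members' median log2 difference was -0.27, against 0.05 over all genes. As deposited, 44 genes were called higher and 92 lower. Median-of-ratios scaling gave 18 higher and 130 lower, with 4 members lower.

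Slc25a20, the acylcarnitine carrier, stood in WT on chow at 93.3 FPKM in RT1, 100.9 in RT3, 107.3 in RT5, 102.8 in RT8 and 103 in RT10. In iKO on chow it stood at 74.52 in RT2, 73.49 in RT4, 73.52 in RT6, 75.75 in RT7 and 76.54 in RT9. The iKO values were tightly grouped (SD 1.36) and well below the lowest WT library. The carrier fell by 0.43 on the log2 scale (SE 0.05, limma adjusted p = 4.39e-06). Cpt2, the matrix-side transferase, stood at 91.91 FPKM in RT1, 100.1 in RT3, 91.5 in RT5, 84.72 in RT8 and 91.36 in RT10 in WT. In iKO it stood at 68.28 in RT2, 71.42 in RT4, 63.98 in RT6, 73.49 in RT7 and 66.4 in RT9. The groups were again apart, and Cpt2 fell by 0.41 (SE 0.05, limma adjusted p = 2.90e-05).

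Cpt1b, the transferase that malonyl-CoA inhibits in muscle, stood in WT at 160.3 FPKM in RT1, 174.6 in RT3, 173.4 in RT5, 163.2 in RT8 and 167 in RT10. In iKO it stood at 140.3 in RT2, 142 in RT4, 131.9 in RT6, 148.3 in RT7 and 129.7 in RT9. No iKO library reached the lowest WT library, and Cpt1b fell by 0.28 (SE 0.05, limma adjusted p = 0.00124). Crat, the acetyltransferase, had values of 135.7 to 149.3 FPKM in WT and 113.8 to 128.8 FPKM in iKO. Its groups did not overlap, but its difference of -0.26 (SE 0.07) narrowly missed the threshold (limma adjusted p = 0.0597). Crat passed in 8 of 29 alternatives, among them median-of-ratios scaling (adjusted p = 0.00924), the fit to the chow libraries alone (0.0176) and the fit without WT HFD library RT19 (0.0217).

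The 2 members of low level did not pass. Slc22a5, the carnitine importer, stood at 9.17 FPKM in RT1, 9.28 in RT3, 8.25 in RT5, 8.25 in RT8 and 9.06 in RT10 in WT. In iKO it stood at 7.68 in RT2, 7.16 in RT4, 6.71 in RT6, 7.98 in RT7 and 8.02 in RT9. No iKO library reached the lowest WT library, yet the difference of -0.20 (SE 0.08) did not pass (limma adjusted p = 0.233). Cpt1a ranged from 10.98 to 13.98 FPKM in WT and from 8.1 to 11.64 FPKM in iKO, so that the groups overlapped. Its difference was -0.24 (SE 0.08, limma adjusted p = 0.166 and 95% interval -0.41 to -0.08).

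Markers of other cell types were read in the same libraries. The 9 fibroblast markers all had log2 differences above 0 and none was called, with summed levels of 376.9 to 458.9 FPKM in WT and 420.1 to 838.4 in iKO, highest in RT4. The 6 macrophage markers were also all above 0 with none called, with sums of 47.8 to 52.58 FPKM in WT and 48.51 to 73.16 FPKM (median 65.3) in iKO, again highest in RT4. Endothelial markers summed to 542.3 to 597.5 FPKM in WT and 461.6 to 628.8 FPKM in iKO, and those of smooth muscle and pericytes to 253.9 to 273.7 FPKM and 252.1 to 278.1 FPKM, with none called. All 5 erythroid markers were above 0 and none was called. They summed to 1605 to 2515 FPKM in WT and 2062 to 3061 FPKM in iKO. Of the 10 cardiomyocyte markers none was called in either direction. The part of other cell types in these differences was not tested, and in bulk RNA fewer cells of a type and less RNA per cell cannot be told apart.

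**Figure D2:**
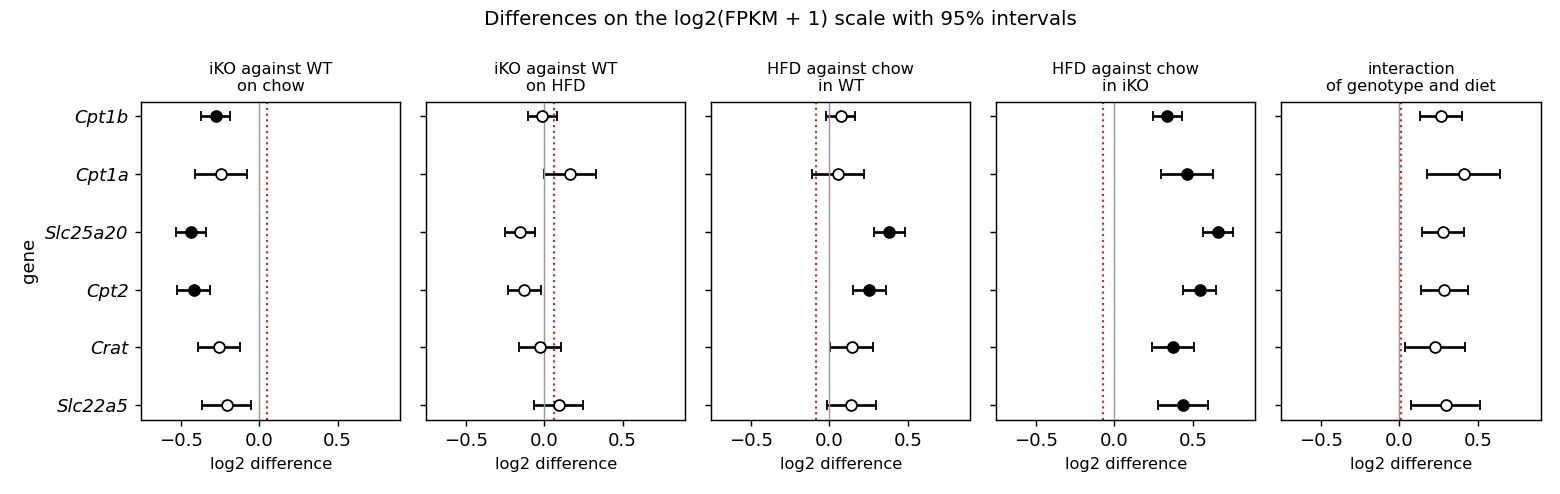
Difference on the log2(FPKM + 1) scale (horizontal axis) of each shuttle gene in the 4 pairwise comparisons and the interaction; bars are 95% intervals of the limma fit, filled dots passed at an adjusted p of 0.05, and the dotted line is the median of all 12775 genes. All 6 dots are filled for HFD against chow in iKO, and none for iKO against WT on HFD.

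On HFD the differences of the shuttle genes between iKO and WT were smaller in size than on chow. Limma called no member in this comparison, where 0.172% of all genes were called, and 2 members, Slc25a20 and Cpt2, had an unadjusted p under 0.05, as had 15.2% of all genes. In none of the 6 were the groups apart, against 0.446% of all genes with iKO lower and 2.79% with iKO higher. As deposited 13 genes were higher and 9 lower, and with median-of-ratios scaling 8 were higher and 17 lower. The members' median difference was -0.02, against 0.06 over all genes.

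Slc25a20 stood in WT on HFD at 141.3 FPKM in RT12, 125.7 in RT14, 124.8 in RT16, 132.9 in RT18 and 138.9 in RT19. In iKO on HFD it stood at 120 FPKM in RT11, 115.1 in RT13, 119.1 in RT15, 111.6 in RT17 and 129.9 in RT20. RT20 alone reached into the WT range, and the difference was -0.15 (SE 0.05, 95% interval -0.25 to -0.06, limma adjusted p = 0.171). Cpt2 had values of 101.0 to 117 FPKM in WT and 96.24 to 106.2 FPKM in iKO, with a difference of -0.13 (95% interval -0.23 to -0.02, limma adjusted p = 0.266). Cpt1b was at 176.6 FPKM ± 6.88 in WT and 175.4 ± 9.14 in iKO (SD, n = 5), a difference of -0.011 with a 95% interval of -0.10 to 0.08 (limma adjusted p = 0.922).

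Cpt1a and Slc22a5 had higher means in iKO than in WT on HFD. Cpt1a stood in WT at 12.62 FPKM in RT12, 12.38 in RT14, 12.16 in RT16, 14.41 in RT18 and 12.05 in RT19. In iKO it stood at 14.83 in RT11, 13.96 in RT13, 14.85 in RT15, 13.78 in RT17 and 14.42 in RT20. RT18 was the WT library that reached the iKO values, and the difference of 0.17 (SE 0.08) did not pass (limma adjusted p = 0.328). Slc22a5 stood at 9.14 to 11.39 FPKM in WT and 8.74 to 11.96 FPKM in iKO, with a difference of 0.09 (95% interval -0.06 to 0.25) that was not called. Crat differed by -0.03 (95% interval -0.16 to 0.11), also not called. Fibroblast markers had log2 differences above 0 in 8 of 9 genes and macrophage markers in 6 of 6. All 5 erythroid markers were below 0. None of these markers was called, and their part in these values was not tested.

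The comparison of HFD with chow in WT asked how the shuttle genes differed between the 2 diets with ACC2 present. Slc25a20 rose from 101.4 FPKM ± 5.11 to 132.7 ± 7.48 (SD, n = 5) and Cpt2 from 91.9 ± 5.47 to 109.9 ± 6.78. These 2 of 6 members were called, where 0.767% of all genes were called higher and 7.27% lower. These are 98 and 929 genes, which became 178 and 149 when libraries were scaled by median-of-ratios, with 3 members higher. For both, every HFD library lay above every chow library, as for 0.783% of all genes, while 9.99% were apart with HFD lower. The rise was 0.38 on the log2 scale for Slc25a20 (SE 0.05, limma adjusted p = 2.91e-05) and 0.26 for Cpt2 (SE 0.05, limma adjusted p = 0.00412).

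The enzymes before the carrier gave smaller differences. Cpt1b went from 167.7 to 176.6 FPKM (log2 difference 0.07, 95% interval -0.02 to 0.17, limma adjusted p = 0.305) and Cpt1a from 12.2 to 12.7 FPKM (0.05, 95% interval -0.11 to 0.22, limma adjusted p = 0.693). Crat stood on HFD at 170.7 FPKM in RT12, 148.7 in RT14, 176.8 in RT16, 162 in RT18 and 135.2 in RT19, the widest spread of the members in any group on the FPKM scale. Its difference of 0.14 (limma adjusted p = 0.170) was 0.25 under median-of-ratios scaling (0.0404) and 0.20 without RT19 (0.0472). Slc22a5 had a difference of 0.14 (limma adjusted p = 0.241), with chow values of 8.25 to 9.28 FPKM and HFD values of 9.14 to 11.39 FPKM.

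In iKO mice all 6 members rose on HFD, where 1.65% of all genes were called higher and 8.36% lower. These are 211 and 1068 genes, which became 328 and 232 when libraries were scaled by median-of-ratios. For each of the 6, all HFD libraries lay above all chow libraries, as for 1.39% of all genes, while 6.41% were apart with HFD lower. The members' median difference was 0.45, against -0.07 over all genes. All 6 were called in each of the 29 alternatives, including those without RT1 and RT4 and without RT4 and RT7.

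The largest difference was that of the carrier, with Slc25a20 going from 74.8 FPKM ± 1.36 to 119.1 ± 6.89 (log2 difference 0.66, SE 0.05, limma adjusted p = 3.14e-09). Cpt2 rose by 0.54 (SE 0.05, limma adjusted p = 2.21e-07), from 68.7 FPKM ± 3.81 to 100.6 ± 3.97, with single HFD libraries at 102.3 in RT11, 96.24 in RT13, 100.6 in RT15, 97.47 in RT17 and 106.2 in RT20. Cpt1b rose from 138.4 FPKM ± 7.6 to 175.4 ± 9.14, by 0.34 (limma adjusted p = 4.17e-05). Its HFD libraries stood at 181.2 in RT11, 168.4 in RT13, 174.5 in RT15, 165.3 in RT17 and 187.6 in RT20, all above the highest iKO chow library. Crat rose by 0.37 (limma adjusted p = 0.000767), from 119.6 FPKM ± 6.48 to 155.6 ± 13.

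Both low members rose here as well. Cpt1a rose by 0.46 (SE 0.08, limma adjusted p = 0.000681), from 11.64 FPKM in RT2, 9.13 in RT4, 8.1 in RT6, 10.85 in RT7 and 11.38 in RT9 to the HFD values of 13.78 to 14.85 FPKM. Slc22a5 rose by 0.44 (SE 0.08, limma adjusted p = 0.000669), and its HFD libraries stood at 8.74 FPKM in RT11, 10.34 in RT13, 9.98 in RT15, 11.96 in RT17 and 11.87 in RT20. The lowest of these, RT11, was still above the highest iKO chow library at 8.02 FPKM. Of the 10 cardiomyocyte markers 7 were called lower on HFD in WT and 6 in iKO, and none was called higher. The log2 differences of 2 of the 10, Ryr2 and Ttn, were above 0 in both genotypes. The part of these markers in the members' differences was not tested. This comparison shares its iKO chow libraries with that of genotype on chow, so that the 2 sets of differences are not independent.

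The interaction asked whether the diet difference was larger in iKO than in WT. Limma called none of the members, and 4 genes or 0.0313% in all. All 6 members had an interaction above 0 and an unadjusted p under 0.05, as had 3.76% of all genes in either direction. The values were 0.41 for Cpt1a (SE 0.11), 0.30 for Slc22a5, 0.29 for Cpt2, 0.28 for Slc25a20, 0.27 for Cpt1b (SE 0.06) and 0.23 for Crat, with limma adjusted p from 0.278 to 0.999. The members' median was 0.28, against 0.01 over all genes. The interaction shares its libraries with the comparisons above.

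Within a library the level of a gene relative to Cpt1b does not depend on how libraries are scaled. On chow Slc25a20 stood at 60.5% ± 2.35 of Cpt1b in WT and 54.1% ± 3.25 in iKO (SD, n = 5), and on HFD at 75.2% ± 3.85 in WT and 67.9% ± 1.13 in iKO. Cpt2 stood at 54.8% ± 2.52 and 49.6% ± 1.13 on chow, and at 62.2% ± 1.93 and 57.4% ± 1.01 on HFD, in the same order of genotypes. For both, every HFD library lay above every chow library of its genotype, and on HFD every iKO library lay below every WT library. On chow this last order held for Cpt2 (48.5% to 51.2% in iKO and 51.9% to 57.4% in WT), whereas the ranges of Slc25a20 overlapped through iKO library RT9 at 59%. On HFD the Slc25a20 ratios came close, at most 69.2% in iKO and at least 69.9% in WT, and in FPKM the genotypes overlapped for both genes. Cpt1b itself was called lower in iKO on chow (-0.28) and higher on HFD in iKO (0.34), which enters every ratio. These ratios are given with no test, and the share of all genes apart on this scale was not computed.

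The share of the liver isoform was small throughout. On chow Cpt1a stood at 7.3% ± 0.705 of Cpt1b in WT and 7.39% ± 1.14 in iKO, and on HFD at 7.21% ± 0.469 in WT and 8.2% ± 0.311 in iKO. The groups overlapped on both diets. Crat kept between 76.8% and 98.9% of Cpt1b and Slc22a5 between 4.76% and 7.24% over all libraries, with overlap between all groups.

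**Figure D3:**
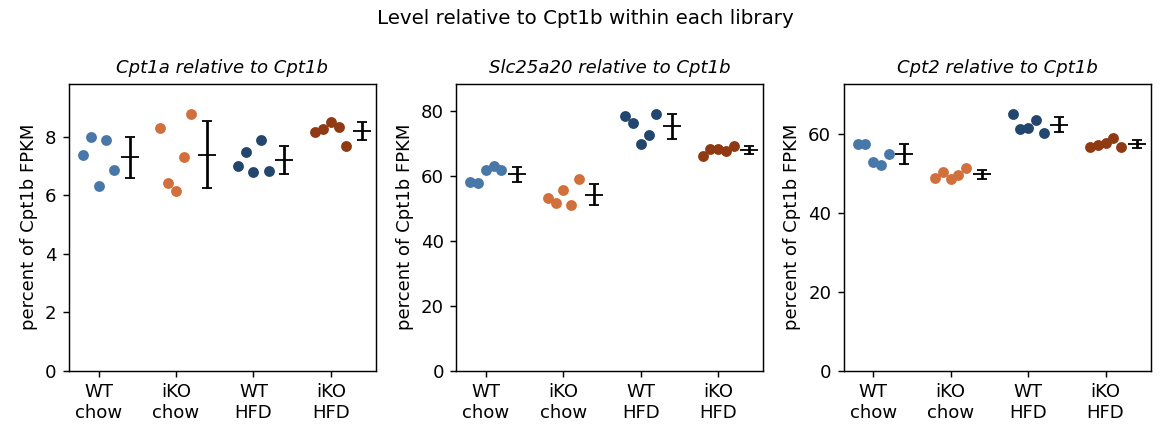
FPKM of Cpt1a, Slc25a20 and Cpt2 in percent of the FPKM of Cpt1b in the same library (vertical axes, from 0), by group; dots are libraries, in order of library number from left to right, and bars are the mean ± SD of 5 mice. Slc25a20 and Cpt2 sit higher on HFD than on chow in both genotypes, while Cpt1a stays between 6.14% and 8.77%.

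Other genes of carnitine metabolism gave few calls. Of 11 genes listed for carnitine synthesis, transport and other acyltransferases 9 were matched and 7 passed the filter on low values, and none of these was called for genotype on either diet. Slc25a29, a mitochondrial carrier of basic amino acids, fell on HFD in WT (4.51 FPKM ± 0.33 to 3.36 ± 0.42) and in iKO (4.47 ± 0.397 to 3.29 ± 0.508). Aldh9a1, an aldehyde dehydrogenase of carnitine synthesis, rose on HFD in iKO from 7.34 FPKM ± 0.834 to 9.06 ± 0.698 (log2 difference 0.27, limma adjusted p = 0.0306). Crot, the peroxisomal carnitine octanoyltransferase, differed by at most 0.06 in any pairwise comparison (smallest limma adjusted p = 0.544). Cpt1c, the CPT1 form of neurons, differed by 0.11 for genotype on chow (limma adjusted p = 0.568).

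The steps before and after the shuttle held more calls. Of 16 tested genes of beta-oxidation after the shuttle, 11 fell and none rose in iKO on chow (median -0.23), and 2 fell and none rose in iKO on HFD (median -0.12). The diet gave 8 higher and none lower in WT and 12 higher and 1 lower in iKO. Decr1, the dienoyl-CoA reductase, had the smallest p of the list in iKO on chow (-0.53, limma adjusted p = 1.38e-07) and in iKO between diets (0.74, limma adjusted p = 3.11e-10). Hadha, of the trifunctional protein, went from 462.6 FPKM ± 13.4 in WT to 351 ± 18.8 in iKO on chow. In fatty acid uptake, binding and activation 4 of 10 fell in iKO on chow (median -0.14), which were Fabp3, Acsl1, Dbi and Cd36. On HFD 1 was called lower in iKO and none higher. This was Dbi, at 179.7 FPKM ± 15.3 in WT and 148.7 ± 10.4 in iKO (-0.27, limma adjusted p = 0.0343). Between diets 3 rose in WT (Dbi, Fabp3 and Cd36) and 5 in iKO, and none fell. Acsl1, the long-chain acyl-CoA synthetase that feeds CPT1, fell by 0.28 in iKO on chow (limma adjusted p = 0.00214) and differed by -0.04 on HFD (limma adjusted p = 0.665).

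Among the malonyl-CoA enzymes, which set the inhibition of CPT1, Mlycd, the decarboxylase that removes malonyl-CoA, fell in iKO on chow from 42.5 FPKM ± 4.15 to 31.2 ± 3.46 (-0.43, limma adjusted p = 0.00598). It rose in iKO between diets to 42.4 ± 3.33 (0.43, limma adjusted p = 0.00173). Acaca was called lower on HFD in WT, from 2.17 FPKM ± 0.331 to 1.6 ± 0.28 (-0.29, limma adjusted p = 0.0349). In iKO it went from 2.54 ± 0.329 to 1.95 ± 0.063 (-0.26, limma adjusted p = 0.0464). The remaining Acacb of iKO was called higher on HFD than on chow, 8.95 ± 0.464 to 10.6 ± 1.13 (0.22, limma adjusted p = 0.0278). Of 11 regulators of fatty acid oxidation genes, which include the genes of PPAR, RXR, PGC-1 and ERR proteins, none was called for genotype on either diet. Pparg rose on HFD in both genotypes, from 4.33 FPKM ± 0.553 to 6.17 ± 0.55 in WT and from 4.37 ± 0.878 to 5.93 ± 0.451 in iKO. These lists were chosen with results of these data known and are given as counts beside the percentages of all genes above.

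**Figure D4:**
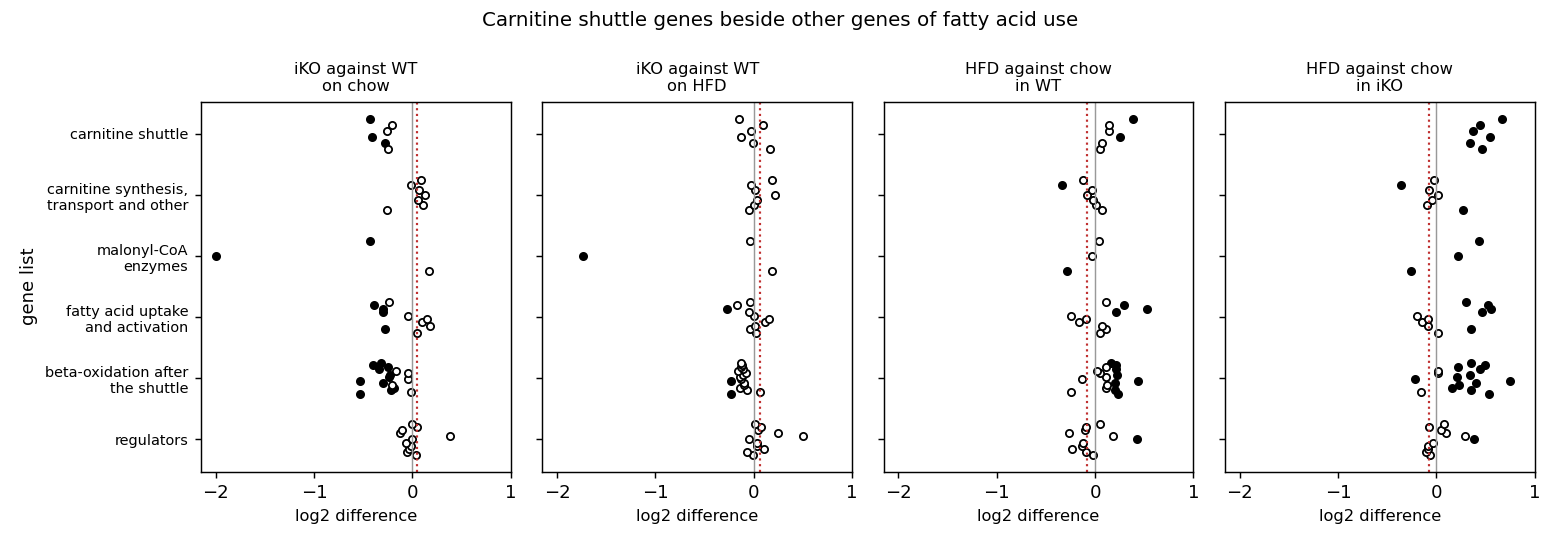
Differences on the log2(FPKM + 1) scale (horizontal axis) of the tested genes of 6 lists in the 4 pairwise comparisons; each dot is a gene, filled where the adjusted p was under 0.05, and the dotted line is the median of all genes. The dot near -2 on chow and near -1.7 on HFD is the deleted gene Acacb.

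For each member the 5 genes whose log2 levels followed it most closely over the 20 libraries were taken. Slc25a20 was followed by Decr1 (Pearson's r 0.983), Eci2 (0.983), Ephx2 (0.981), Fabp3 (0.976) and Fbp2 (0.970), and Cpt2 by Etfdh (0.962), Hadha (0.962), Vwa8, Retsat and Ephx2. Cpt1b was followed by Acadvl (0.963), the first dehydrogenase of long-chain beta-oxidation, by Cpt2 (0.957), Psap, Agpat3 and Ech1. Crat was followed by Nfe2l1 (0.929), Vwa8 (0.928), Agpat3, Hadha and Acadvl. Cpt1a was followed by Ucp3 (0.853), which encodes a mitochondrial uncoupling protein, Lipe, Rab11b, Cat and Hsd17b11. Slc22a5 was followed by Ucp3 (0.876), Slc25a22, Btnl9, Gpam and Acot1. These correlations were ranked over 11139 genes, all in the same 20 libraries, and include the differences between groups. With the group means removed they were lower, 0.883 for Cpt1b with Acadvl, 0.546 for Slc25a20 with Decr1 and 0.393 for Cpt2 with Etfdh. Among the 15 pairs of members the correlation within groups was highest for Cpt1b with Cpt2 (0.822) and lowest for Slc25a20 with Slc22a5 (0.023).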

How the data were processed

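RNA of 20 left ventricles was sequenced as 100 nt single-end poly(A) libraries, per the labels' protocols. The authors deposited FPKM per gene, 1 table per library, and the submitters' processing notes name Bowtie2, RSEM, DESeq2 and mm9, with no versions. Of the 25052 Ensembl IDs 24938 are in GENCODE M21, which is on GRCm38, with ID versions ignored. The notes state mm9, and this count does not settle the build, so that coordinates are by ID. FPKM are not counts, and whole reads were not recovered: 46.2% to 59.1% of values of short genes (130 to 450 nt) were whole within 0.05 reads, which allowed an estimate of depth. From the deposited values, log2(FPKM + 1) was computed, which understates changes of low genes, for genes that reached 0.5 FPKM in 5 or more libraries. Limma 3.58.1 (R 4.3.3) took the 20 libraries as 4 group means, with intensity trend and robust moderation. Benjamini-Hochberg adjustment ran over all 12775 genes per comparison, with calls at 0.05. The fit was tested on simulated data. Members of the shuttle were taken by symbol. The lists, the promoter motifs and the mismatches allowed were chosen with earlier results of these data, or the sequences, known. Named genes were the members, up to 4 called genes per list by smallest p, and the 5 genes most correlated with each member. The genes Crot, Cpt1c, Ryr2 and Ttn were named after their values were seen. Alternatives were another pseudocount, no filter, 2 scalings, plain limma, library weights, the groups compared alone and libraries left out. Python 3.11.15 was used for the rest.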

Additional observations from a re-analysis of the deposited data

Results flagged for a closer look

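Among 32 sets of 5 values examined (6 shuttle genes, Acacb and the ratio of Cpt1a to Cpt1b in each group), 1 held a library far from the others. Cpt1a stood at 14.41 FPKM in WT HFD library RT18, and its gap to the next library took 75.9% of the range of the group, above the 71% that is critical for 5 values. Chance alone gives about 1 such set in 20. RT18 was also the library with the highest estimated depth and the highest Slc22a5 of its group, at 11.39 FPKM. Without it the difference of Cpt1a between iKO and WT on HFD was 0.21 (limma adjusted p = 0.319), still not called.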

How the results depend on the processing

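The number of members called stayed within 1.5 times its value in each comparison and each alternative run. It was 3 to 4 for genotype on chow, 2 to 3 for diet in WT, 6 for diet in iKO, and 0 for genotype on HFD and for the interaction, also when any 1 of the 20 libraries was left out. Of 864 single-gene values under alternatives, 846 kept direction and call, 12 passed the threshold anew, all of them of Crat, 6 changed sign and none lost a call. Many of these values could not change direction. Leaving out a library of a group outside a pairwise comparison does not alter its log2 difference, only its SE and adjusted p. The same holds for plain limma and for the groups compared alone. Sign changes concerned differences near 0 on HFD. With 1 library left out Cpt1b (-0.011 in the whole set) ranged from -0.035 to 0.010, being 0.0035 without RT13, 0.010 without RT17 and 0.0019 without RT18. Crat (-0.026) ranged from -0.081 to 0.016, being 0.0021 without RT12, 0.014 without RT16 and 0.016 without RT17. The cause was not tested. The scaling alternatives moved the median of all genes by less than 0.1 on the log2 scale. The number of all genes called moved as well, and it cannot be set against a count of members that lies between 0 and 6. Over the alternatives the genes called for genotype on chow went from 136 to between 74 (without RT4 and RT7) and 151, and on HFD from 22 to between 5 (only those groups fitted) and 95 (quality weights). For diet in WT they went from 1027 to between 327 (median-of-ratios scaling) and 2092 (quality weights), in iKO from 1279 to between 509 (without RT4 and RT7) and 1475, and for the interaction from 4 to between 0 and 5. No paired analysis was made, because the library numbers RT1 to RT20, each used once, name no pairs. Litters were not part of the fit. The fitted standard errors of the pairwise differences were largest for Cpt1a (0.080) and Slc22a5 (0.075), the members of lowest level, and smallest for Cpt1b (0.045), so that differences of one size pass less easily for the former.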
